A study of Mus musculus with 8 samples.

Results

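The genes described here are a module of meiotic prophase: the proteins that build the synaptonemal complex and the chromosome axis, those that make and repair the meiotic DNA breaks, and a few regulators of entry into meiosis. The module was defined as a list of 39 gene symbols grouped by function; its rule uses no measured value, but the list was drawn up with earlier results of these data known. Of these, 37 were found among the 23343 gene symbols of the tables, and 35 had enough counts to be tested. Spo11 and Meiob had too few counts for the test, and Rec114 and Rnf212 were not analysed here.

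RNA was measured in spermatogonia of C57BL/6 mice at postnatal day 7, sorted from testis as Thy1+ or cKit+ cells. Thy1 is a surface protein used to enrich undifferentiated spermatogonia, and Kit is the receptor that differentiating spermatogonia carry. Each population came from mice labelled PRC1ctrl (control) or PRC1dKO (dKO), which gave 4 groups of 2 libraries, named here by population and genotype (such as Thy1 control and cKit dKO). PRC1 is Polycomb repressive complex 1, which ubiquitinates histone H2A. The labels do not spell out the alleles, the Cre driver, or what the controls carry. They also do not say whether the libraries of a group came from separate animals, so p-values measure only the spread between these libraries, which may be technical.

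In meiotic prophase, homologous chromosomes pair along a protein axis made of cohesin and HORMA domain proteins, and the synaptonemal complex then joins the axes. SPO11 cuts the DNA, recombinases such as DMC1 find the homologous copy, and a subset of the repairs become crossovers. In the mouse testis the first cells reach prophase soon after the age sampled here, and many of these genes are already transcribed in spermatogonia. PRC1.6, a variant form of PRC1 with MGA, MAX, E2F6, PCGF6 and L3MBTL2 as subunits, is known to bind the promoters of many germ line genes.

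Library totals ran from 6763908 to 10976869 counts. Thy1 RNA was 12.8 to 26 CPM (counts scaled to a common library size, with TMM factors) in the Thy1 libraries and 0 to 1.28 CPM in the cKit libraries, and Kit RNA was 281 to 317 CPM against 938 to 1059 CPM. The PRC1 genes Rnf2 (103 to 146 CPM) and Ring1 (2.59 to 12 CPM) did not pass the test in either dKO, but counts over whole genes do not check a deletion of part of a gene. Markers of late spermatogenesis were scarce, with a summed level of 7.66 to 16.2 CPM over 15 genes and Prm1 at 0 in every library. The germ cell markers Ddx4, Dazl and Sohlh1 were found in all libraries, at 34.3 to 191, 146 to 708 and 3.2 to 24.3 CPM, each lowest in cKit dKO, where Sohlh1 was at 3.2 and 5.18 CPM against 18.1 and 23.2 in cKit control. Kit RNA did not fall with these markers, at 1049 and 938 CPM in cKit control and 1059 and 1012 CPM in cKit dKO. All libraries also held RNA of testis somatic cells, with values given further on. Which cells the Kit RNA came from was not tested.

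Across the module, levels fell with the dKO in cKit+ cells and changed little in Thy1+ cells. In Thy1+ cells, 0 members were higher and 1 was lower in dKO than in control (edgeR's quasi-likelihood test, Benjamini-Hochberg adjusted p under 0.05 over all 14907 genes tested), where 0.362% of all genes were higher and 0.262% lower. At an unadjusted p under 0.05, 2 members were higher and 3 lower there, against 7.57% and 6.25% of all genes. In cKit+ cells, 23 of the 35 tested members were lower in dKO and 0 were higher, against 15.4% of all genes lower and 13.2% higher. At an unadjusted p under 0.05, 25 members were lower and 0 higher, against 20.6% and 19.4% of all genes. The median log2 fold change of the tested members was 0.05 in Thy1 dKO and -1.10 in cKit dKO, and that of all genes was 0.03 in both. These directions are relative to the bulk of the RNA. Scaled instead on a list of 30 core germ cell genes, 0 members were lower in cKit dKO and 7 were higher. On that scale 0.449% of all genes were lower and 81.1% higher. Whether the dKO acts on those 30 genes themselves was not tested.

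The summed level of the 37 members shows the same in single libraries. It was 1486 and 1575 CPM in Thy1 control, 1689 and 1561 CPM in Thy1 dKO, 1471 and 1181 CPM in cKit control, and 528 and 660 CPM in cKit dKO. The cKit dKO libraries lie below the other 6, which run from 1181 to 1689 CPM. Gene by gene, 29 of the 35 tested members had both cKit dKO libraries below both cKit controls, against 30.0% of all genes, and 1 (Mybl1) had both above, against 30.8%. In Thy1 dKO 13 members had both libraries above control and 9 both below, against 28.5% and 22.8% of all genes. In bulk samples such as these, fewer cells of a type and less RNA per cell cannot be told apart.

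**Figure D1:**
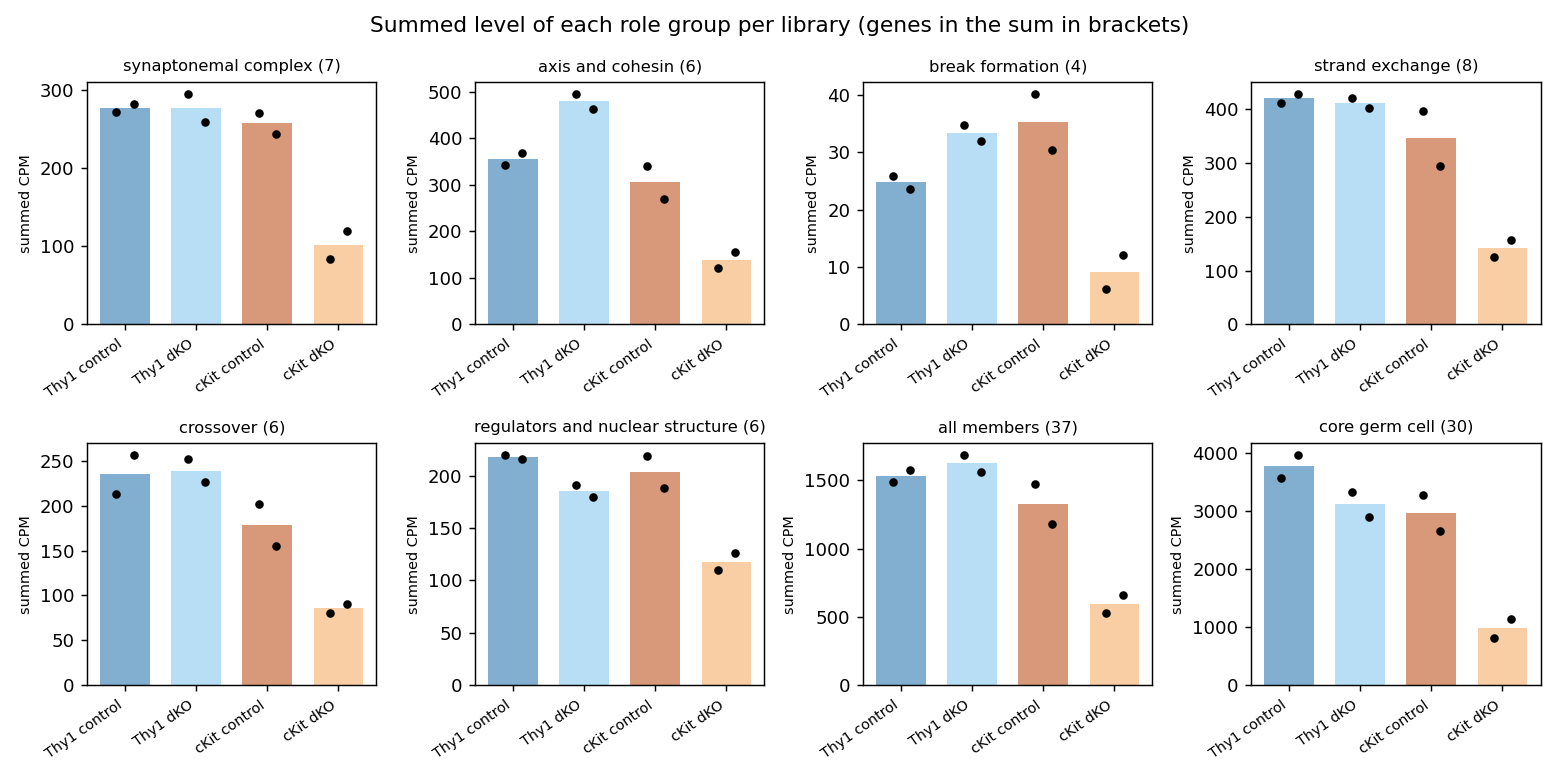
Summed CPM (vertical axis, from 0) of the genes in each functional class, of all 37 members and of 30 core germ cell genes, by group. Bars are the mean of 2 libraries and points the libraries; in each panel the cKit dKO libraries are lowest with TMM-scaled libraries, while scaled on the core germ cell genes 0 members are lower there.

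Levels per transcript length place the module's members over a wide range. By deposited RPKM (reads scaled by transcript length and library size, largest transcript entry), Syce2 was highest in cKit control at 31.3 ± 3.86 (SD, n = 2), followed by Smc1b at 16.0 ± 3.41, Trip13 at 15.2 ± 3.02 and Sycp3 at 11.7 ± 3.07. Syce2 stood apart from Smc1b by more than their SDs, while neighbours among Smc1b, Trip13 and Sycp3 overlap within theirs. The lowest mean RPKM in that group belonged to Meiob at 0.00889 and Msh5 at 0.0587. In Thy1 control the order of the top members was the same, with Syce2 at 18.8 ± 1.43, Smc1b at 15.0 ± 0.476, Trip13 at 13.9 ± 0.0847 and Sycp3 at 11.5 ± 1.52 RPKM.

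**Figure D2:**
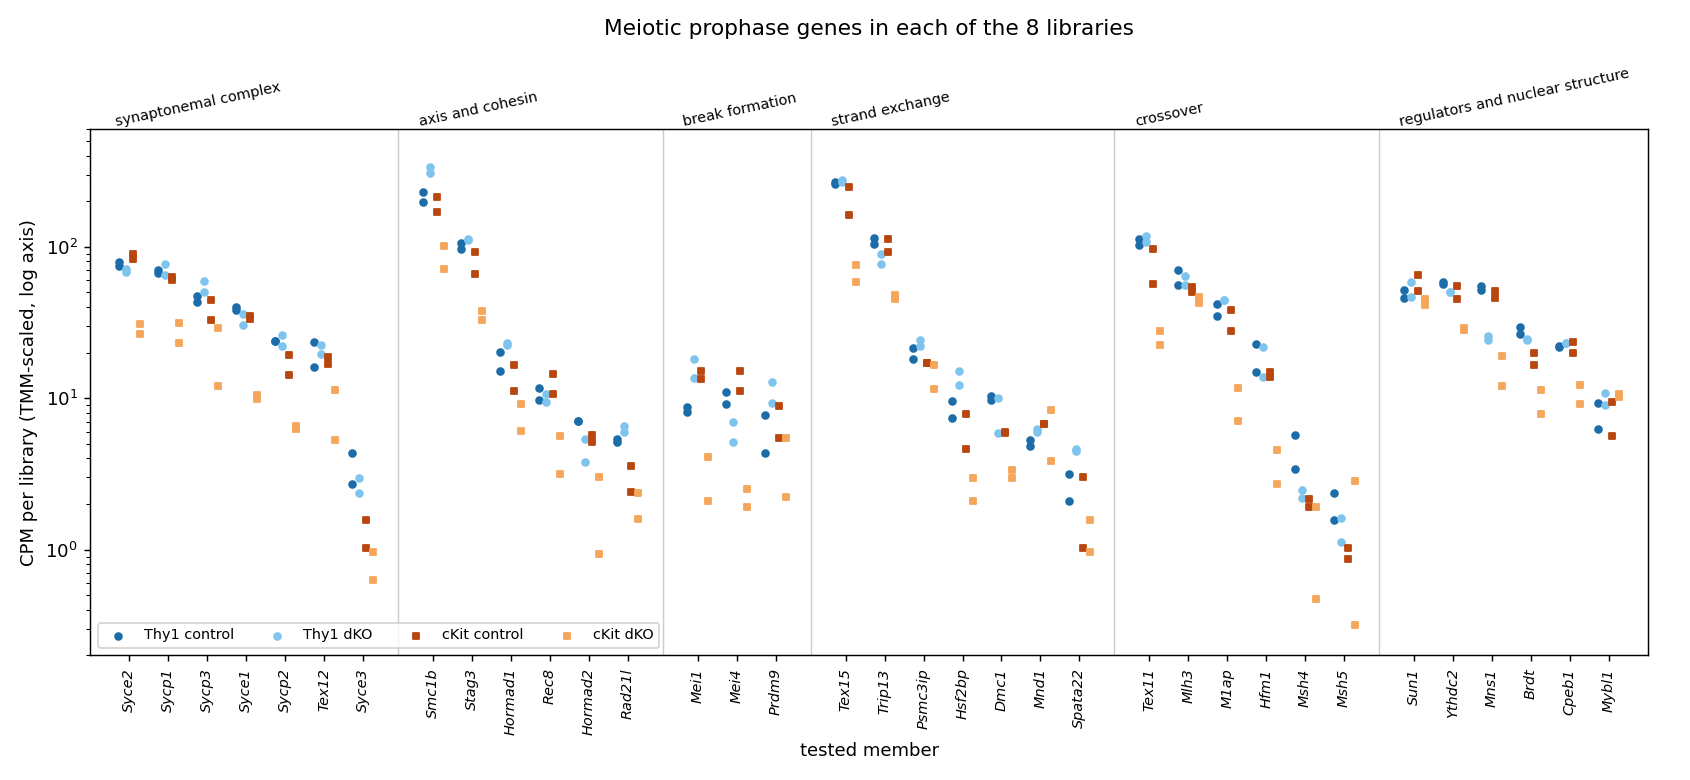
CPM of the 35 tested members in each of the 8 libraries, on a log axis, grouped by function and ordered by mean CPM within each class. Each point is a library and its colour the group. For most members the cKit dKO points (light orange) are lowest, while for some, such as Mybl1, they are not. Scaled on core germ cell genes 0 members are called lower.

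Among the 7 genes of the synaptonemal complex, 6 fell in cKit dKO and 0 rose, and 0 passed the test in Thy1 dKO. On the core germ cell scale 0 of the 6 were lower. Sycp1, which encodes the transverse filament that bridges the axes, was at 66.9 and 70.2 CPM in Thy1 control, 76.6 and 65.1 in Thy1 dKO, 63.2 and 60.1 in cKit control, and 23.2 and 31.2 in cKit dKO. Both cKit dKO libraries lie below all others, and the Thy1 groups overlap. Its log2 fold change in cKit dKO was -1.18 ± 0.17 (SE; edgeR adjusted p = 0.00012).

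Syce1 and Syce2 encode central element proteins, which hold the transverse filaments together. Syce1 was at 38.4 and 40 CPM in Thy1 control, 35.8 and 30.5 in Thy1 dKO, 33.2 and 34.8 in cKit control, and 9.93 and 10.5 in cKit dKO. Syce2 was at 75.2 and 79.1 CPM in Thy1 control, 71.6 and 68.7 in Thy1 dKO, 90.2 and 83.7 in cKit control, and 26.6 and 31.1 in cKit dKO. For both genes the cKit replicates are close to each other and the cKit groups are far apart. The log2 fold changes in cKit dKO were -1.73 ± 0.19 for Syce1 (edgeR adjusted p = 2.1e-05) and -1.59 ± 0.14 for Syce2 (edgeR adjusted p = 4.6e-06). Syce2 overlaps Gcdh on the opposite strand over 1060 bases, and the strand setting of the counting is not given in the sources used here. Syce2 is deposited as 2 entries with nearly the same span; the later-starting one took 0% to 27.6% of its counts in 7 libraries and 66.7% in cKit dKO replicate 2, and the sum of both was tested.

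The lateral element proteins SYCP2 and SYCP3 line the axes. Sycp2 was at 23.7 and 23.9 CPM in Thy1 control, 26.1 and 22.2 in Thy1 dKO, 19.2 and 14.2 in cKit control, and 6.24 and 6.59 in cKit dKO, a log2 fold change of -1.39 ± 0.25 in cKit (edgeR adjusted p = 0.0009). Sycp3 was at 47.1 and 43.1 CPM in Thy1 control, 59.8 and 50 in Thy1 dKO, 44.6 and 33 in cKit control, and 12 and 28.9 in cKit dKO. The cKit dKO replicates of Sycp3 are far apart, unlike those of Sycp2. The fall of Sycp3 was -0.93 ± 0.28 on the log2 scale (edgeR adjusted p = 0.023), and it did not pass without cKit control replicate 1 (-0.69, adjusted p = 0.2) or without cKit dKO replicate 1 (-0.39, adjusted p = 0.21). Sycp3 overlaps Chpt1 on the opposite strand over 424 bases. Tex12, a further central element gene, also fell (-1.10 ± 0.31, edgeR adjusted p = 0.016), a call lost without cKit control replicate 1 (-1.02, adjusted p = 0.094) or cKit dKO replicate 1 (-0.61, adjusted p = 0.14). Syce3, at 0.627 to 4.34 CPM in all libraries, did not pass the test. Its entries had equal counts in cKit control replicate 2 (4 and 4) and in the cKit dKO libraries (3 and 3, 2 and 2). Its sums there may hold a read more than once.

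Of the 6 genes of the axis and of meiotic cohesin, 5 fell in cKit dKO and 0 rose; scaled on core germ cell genes, 0 of them were lower. Cohesin rings hold sister chromatids together, and STAG3, SMC1B, REC8 and RAD21L are subunits used in meiosis. Smc1b was at 198 and 229 CPM in Thy1 control, 339 and 308 in Thy1 dKO, 213 and 170 in cKit control, and 71.1 and 102 in cKit dKO. Its dKO libraries are both above control in Thy1 and both below control in cKit. The fall in cKit was -1.15 ± 0.16 (edgeR adjusted p = 0.00012). The value in Thy1, 0.60 ± 0.15, did not pass in edgeR (adjusted p = 0.082) and did in DESeq2 (0.59, adjusted p = 0.021).

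Stag3 was at 106 and 96.1 CPM in Thy1 control, 111 and 112 in Thy1 dKO, 92 and 66.1 in cKit control, and 33.1 and 37.5 in cKit dKO. Its fall in cKit dKO was -1.17 ± 0.16 (edgeR adjusted p = 0.00011). Rec8, the kleisin that closes the ring, was at 11.6 and 9.74 CPM in Thy1 control, 9.46 and 10.6 in Thy1 dKO, 10.7 and 14.5 in cKit control, and 5.6 and 3.14 in cKit dKO, with a fall of -1.52 ± 0.35 (edgeR adjusted p = 0.0044). For both genes the cKit dKO libraries lie below all others. Rad21l, the other meiotic kleisin, was at 5.39 and 5.16 CPM in Thy1 control, 6.53 and 5.99 in Thy1 dKO, 3.55 and 2.42 in cKit control, and 1.6 and 2.35 in cKit dKO. Its cKit groups nearly touch, and the difference of -0.61 ± 0.48 did not pass the test (edgeR adjusted p = 0.38).

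HORMAD1 and HORMAD2 are axis proteins that mark unsynapsed chromosomes. Hormad1 was at 15.1 and 20.1 CPM in Thy1 control, 23.2 and 22.5 in Thy1 dKO, 16.5 and 11.2 in cKit control, and 6.08 and 9.1 in cKit dKO. Its fall in cKit, -0.88 ± 0.29, was close to the threshold (edgeR adjusted p = 0.034; 0.059 in DESeq2) and was not called without either dKO library of Thy1, without cKit control replicate 1 or without cKit dKO replicate 1. Hormad2, at 0.941 to 7.1 CPM over all libraries, passed narrowly (-1.44 ± 0.51, edgeR adjusted p = 0.045), and the call was lost without 7 of the 8 libraries, each left out in turn.

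The break formation genes held the largest falls of the module. Mei4 and Mei1 are needed for SPO11 to cut. Mei4 was at 9.2 and 11 CPM in Thy1 control, 6.98 and 5.17 in Thy1 dKO, 15.2 and 11.1 in cKit control, and 1.92 and 2.51 in cKit dKO. Its change in cKit dKO was -2.57 ± 0.38 (edgeR adjusted p = 0.00017). Both dKO groups lie below their controls, but the Thy1 difference of -0.73 ± 0.33 did not pass (edgeR adjusted p = 0.34).

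Mei1 was at 8.81 and 8.1 CPM in Thy1 control, 18.2 and 13.6 in Thy1 dKO, 15.1 and 13.3 in cKit control, and 2.08 and 4.08 in cKit dKO. The dKO libraries are above control in Thy1 and below it in cKit, with no overlap in either. The fall in cKit was -2.20 ± 0.35 (edgeR adjusted p = 0.00032), and the Thy1 value of 0.92 ± 0.31 did not pass (adjusted p = 0.18). On the core germ cell scale, neither Mei4 (-0.99 ± 0.51) nor Mei1 (-0.66 ± 0.46) passed in cKit dKO, and both kept a negative sign.

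Prdm9, the histone methyltransferase that places the breaks, was at 7.76 and 4.34 CPM in Thy1 control, 9.24 and 12.8 in Thy1 dKO, 8.92 and 5.49 in cKit control, and 2.24 and 5.49 in cKit dKO. The cKit groups meet at 5.49 CPM, and the difference of -0.91 ± 0.46 did not pass (edgeR adjusted p = 0.16). Spo11, the nuclease itself, had 1 and 1 counts in Thy1 control, 2 and 2 in Thy1 dKO, 11 and 4 in cKit control, and 0 and 0 in cKit dKO. With 3 counts taken as the limit for the group at 0, and the 15 counts of cKit control taken as measured, Spo11 was at least 3.26-fold lower in cKit dKO. This value covers the counting error of the group at 0 and leaves out that of cKit control. It comes with no test across libraries. It is on the TMM scale, and Spo11 was not fitted on the core germ cell scale.

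Strand exchange and repair genes were divided. Of 7 tested, 3 fell in cKit dKO (Tex15, Trip13 and Hsf2bp) and 0 rose; scaled on core germ cell genes, 0 were lower, and Mnd1 and Psmc3ip were higher. Tex15, which acts in meiotic repair and in silencing of transposons, was at 261 and 267 CPM in Thy1 control, 278 and 266 in Thy1 dKO, 248 and 163 in cKit control, and 58.9 and 75.6 in cKit dKO. The Thy1 libraries differ little while the cKit groups are far apart, with a fall of -1.61 ± 0.17 in cKit (edgeR adjusted p = 1.5e-05). Trip13, the ATPase that removes HORMADs from the axis, was at 105 and 115 CPM in Thy1 control, 90.1 and 76.9 in Thy1 dKO, 113 and 91.9 in cKit control, and 45 and 48.3 in cKit dKO. It was below control in both dKO groups, by -1.14 ± 0.15 in cKit (edgeR adjusted p = 5.8e-05) and, without passing, by -0.40 ± 0.14 in Thy1 (adjusted p = 0.2).

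Hsf2bp encodes a partner of BRCA2 in the loading of recombinases. It was at 9.6 and 7.4 CPM in Thy1 control, 12.2 and 15.2 in Thy1 dKO, 4.59 and 7.91 in cKit control, and 2.08 and 2.98 in cKit dKO. The fall in cKit, -1.28 ± 0.41 (edgeR adjusted p = 0.029), was not called without cKit control replicate 2 (-0.81, adjusted p = 0.21) or cKit dKO replicate 1 (-0.99, adjusted p = 0.14).

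Dmc1, the meiotic recombinase, was at 10.4 and 9.74 CPM in Thy1 control, 5.86 and 10.1 in Thy1 dKO, 5.98 and 5.87 in cKit control, and 3.36 and 2.98 in cKit dKO. The cKit groups are apart, but the difference of -0.90 ± 0.39 did not pass (edgeR adjusted p = 0.098). Spata22, which binds single-stranded DNA with MEIOB, was at 2.1 and 3.17 CPM in Thy1 control, 4.5 and 4.63 in Thy1 dKO, 3.03 and 1.02 in cKit control, and 0.961 and 1.57 in cKit dKO, and its cKit groups overlap. Psmc3ip and Mnd1, whose proteins form the HOP2-MND1 helper of DMC1, were among the members nearest to 0 in cKit dKO, at -0.29 ± 0.24 and -0.15 ± 0.40 (edgeR adjusted p = 0.39 and 0.81). Meiob had 0 to 11 counts in a library and supports no comparison.

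In the crossover class 3 of 6 tested members fell in cKit dKO and 0 rose; scaled on core germ cell genes, 0 were lower, and Mlh3 and Msh5 were higher. Hfm1, a helicase of crossover formation, was at 14.9 and 22.9 CPM in Thy1 control, 21.8 and 13.9 in Thy1 dKO, 14.9 and 13.9 in cKit control, and 2.72 and 4.55 in cKit dKO. M1ap, which acts with the crossover factor TEX11, was at 35 and 42 CPM in Thy1 control, 44.4 and 44.4 in Thy1 dKO, 38.1 and 27.8 in cKit control, and 7.04 and 11.6 in cKit dKO. Both cKit dKO libraries are lowest for each gene. The changes in cKit were -1.98 ± 0.35 for Hfm1 (edgeR adjusted p = 0.00074) and -1.82 ± 0.24 for M1ap (edgeR adjusted p = 8.1e-05).

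Tex11, an X-linked gene, was at 103 and 113 CPM in Thy1 control, 118 and 108 in Thy1 dKO, 96.1 and 56.5 in cKit control, and 22.3 and 27.9 in cKit dKO. The cKit control replicates differ widely, yet both exceed the dKO ones, and the fall was -1.61 ± 0.21 (edgeR adjusted p = 7.1e-05). Mlh3, a gene of crossover formation, had a small difference of -0.22 ± 0.16 that did not pass (edgeR adjusted p = 0.33). Msh4 and Msh5, whose proteins form a clamp on crossover intermediates, were at 0.32 to 5.75 CPM in all libraries and did not pass; Msh5 is listed in entries that share reads, so its counts may hold a read more than once.

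Among the 6 regulators and nuclear structure genes, 4 fell in cKit dKO (Brdt, Cpeb1, Ythdc2 and Mns1) and 0 rose. With core germ cell scaling 0 were lower, and Mybl1, Sun1 and Ythdc2 were higher. Mns1, a gene of the nuclear and flagellar skeleton, had 394 and 471 counts in Thy1 control, 230 and 178 in Thy1 dKO, 529 and 397 in cKit control, and 75 and 122 in cKit dKO. In CPM these were 51.8 and 55.3, 25.9 and 24.2, 45.8 and 50.7, and a mean of 15.6 ± 5.04 (SD, n = 2) in cKit dKO. It was lower in dKO in both populations, by -1.09 ± 0.19 in Thy1 (edgeR adjusted p = 0.022) and -1.63 ± 0.20 in cKit (edgeR adjusted p = 5e-05). The Thy1 call, the one member call in that comparison, was lost without any 1 of the 4 Thy1 libraries (adjusted p = 0.16 to 0.34). Mns1 overlaps Tex9 on the opposite strand over 522 bases.

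Brdt encodes a testis bromodomain protein that reads acetylated histones. It was at 26.4 and 29.5 CPM in Thy1 control, 24.7 and 24.2 in Thy1 dKO, 19.9 and 16.6 in cKit control, and 7.84 and 11.3 in cKit dKO, a fall of -0.93 ± 0.24 in cKit (edgeR adjusted p = 0.0086). The Brdt call was lost without cKit control replicate 1 (-0.79, adjusted p = 0.079) or cKit dKO replicate 1 (-0.65, adjusted p = 0.08). Ythdc2, an RNA helicase needed to leave mitosis for meiosis, was at 59 and 56.8 CPM in Thy1 control, 50.1 and 50.6 in Thy1 dKO, 55.5 and 45 in cKit control, and 29.3 and 28.2 in cKit dKO. Its fall of -0.81 ± 0.16 (edgeR adjusted p = 0.0015) was the smallest of the 23. Cpeb1, a regulator of messenger RNA translation, fell by -1.03 ± 0.23 (edgeR adjusted p = 0.0036).

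Mybl1, the transcription factor known to drive many prophase genes, was among the 12 tested members not called in cKit dKO. It was at 9.34 and 6.22 CPM in Thy1 control, 9.01 and 10.9 in Thy1 dKO, 9.44 and 5.61 in cKit control, and 10.2 and 10.7 in cKit dKO. In cKit the dKO libraries are the higher ones, but the difference of 0.46 ± 0.34 did not pass (edgeR adjusted p = 0.34). Msh5 was the other tested member with a value above 0 there (0.74 ± 0.86). Sun1, whose protein tethers chromosome ends to the nuclear envelope and which somatic cells also express, was not called either (-0.43 ± 0.17, edgeR adjusted p = 0.073).

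**Figure D3:**
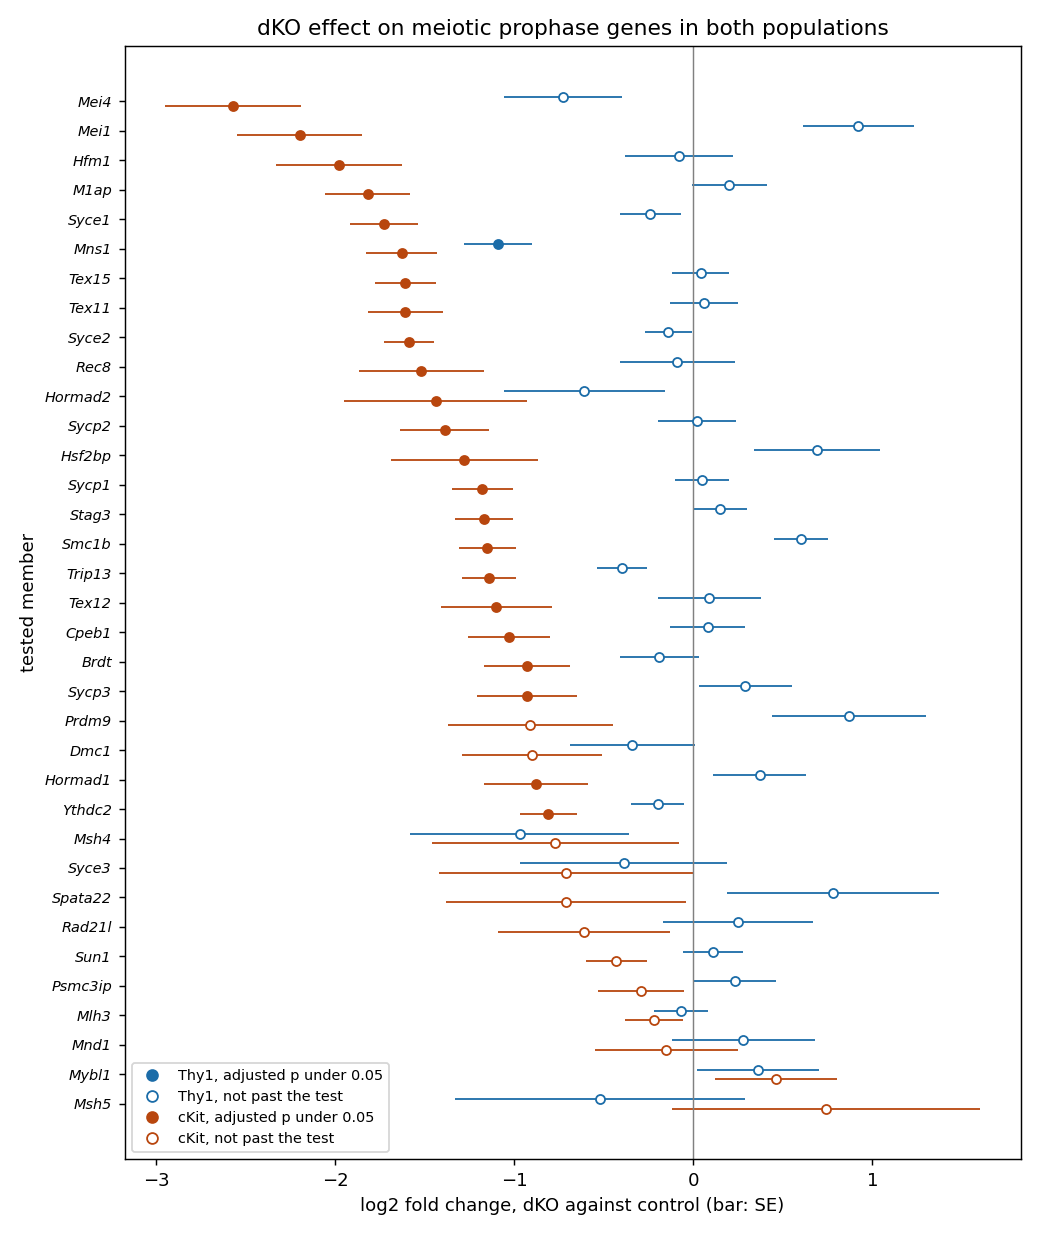
Log2 fold change of dKO against control for the 35 tested members, in Thy1+ cells (blue) and cKit+ cells (orange), with SE bars and filled points for an edgeR adjusted p under 0.05. In cKit 23 members are filled and below 0, and in Thy1 only Mns1 is; with scaling on core germ cell genes 0 members are called lower in either.

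The question of whether the dKO effect differed between the populations was put to the difference of the effects, cKit minus Thy1. It passed for 14 members, all with the lower value in cKit, against 4.06% of all genes lower and 1.86% higher; 0 members were higher in edgeR, also at an unadjusted p under 0.05. With limma on the RPKM values 0 members passed for the difference. By size the first were Mei1 (-3.11 ± 0.47), M1ap (-2.03 ± 0.32) and Hsf2bp (-1.97 ± 0.54). Of the 14, 8 passed whichever single library was left out: M1ap, Mei1, Smc1b, Stag3, Syce1, Syce2, Tex11 and Tex15. The median of the tested members for the difference was -1.22, and ran from -1.30 to -0.93 with single libraries left out. For Mns1, lower in both populations, the difference did not pass (-0.53 ± 0.28, edgeR adjusted p = 0.3). Scaled on core germ cell genes, Mei1 alone was lower (-1.92 ± 0.63, adjusted p = 0.0082), and Mlh3 and Mybl1 were higher, against 0.255% of all genes lower and 51.7% higher.

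Between the populations in control mice, 0 members passed in either direction, against 9.46% of all genes higher in cKit and 10.3% lower. At an unadjusted p under 0.05, 1 member was higher in cKit and 7 were lower, against 15.5% and 16% of all genes; DESeq2 called 0 (against 8.72% of all genes higher and 9.49% lower), and limma on the RPKM values called 2 higher and 1 lower (against 14.1% and 5.44%). Scaling on core germ cell genes called 1 higher, Mei1 (1.15), and 0 lower, against 15.0% and 4.50% of all genes. Both control cKit libraries lay above both control Thy1 libraries for 4 members and below them for 17, against 29.9% and 29.8% of all genes. Stra8, the gene induced by retinoic acid at the entry into meiosis and no member of the module, was higher in control cKit than in control Thy1 (0.96 ± 0.19). In dKO mice, 28 of 35 tested members were lower in cKit than in Thy1 and 0 were higher, against 20.0% of all genes lower and 14.8% higher. The comparison shares its cKit dKO libraries with that of dKO against control. The largest were Hsf2bp (-2.43 ± 0.40), Mei1 (-2.37 ± 0.35), Hfm1 (-2.30 ± 0.35), M1ap (-2.25 ± 0.24) and Tex11 (-2.17 ± 0.21). With core germ cell scaling 0 members were lower and 8 higher, against 1.33% and 77.2% of all genes. Both cKit dKO libraries lay below both Thy1 dKO libraries for 32 of the 35 and above for 0, against 38.2% and 29.3% of all genes.

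Germ cell and somatic markers moved with the falls in cKit dKO. The 30 core germ cell genes, with no member of the module among them, summed to 3284 and 2658 CPM in cKit control and 822 and 1143 CPM in cKit dKO. Of them 25 were lower and 0 higher, with a median log2 fold change of -1.61 against -1.10 for the module. Sertoli cell markers summed to 1654 and 1725 CPM in cKit control and 2357 and 2365 CPM in cKit dKO, with 10 of 19 higher and 1 lower. Leydig cell markers went from 11710 and 14152 CPM to 16269 and 19101 CPM, with 7 of 12 higher and 1 lower. Peritubular and stromal markers went from 3493 and 3448 CPM to 7036 and 5578 CPM, with 11 of 16 higher, and endothelial markers from 233 and 242 CPM to 471 and 484 CPM, with 6 of 11 higher. Macrophage markers, at 187 and 432 CPM in cKit control and 153 and 577 CPM in cKit dKO, had 0 of 12 called in edgeR, with a median of 0.31. No marker in these somatic lists was at 0 in all libraries. The part of these shifts in the members' falls was not tested.

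In Thy1 dKO the core germ cell sum went from 3572 and 3975 CPM to 3327 and 2907 CPM, while the sum of the module's members overlapped between the groups. On the core germ cell scale 0 members passed in either direction in Thy1 dKO, against 1.13% of all genes higher and 0.0537% lower. At an unadjusted p under 0.05, 6 members were higher and 1 lower, and the share of all genes there was not computed. The median on that scale was 0.41 for the members and 0.40 for all genes. The Sertoli sum there went from 934 and 921 CPM to 1118 and 1178 CPM (2 of 19 higher), the Leydig sum from 2732 and 3439 to 3985 and 4466 CPM (3 of 12 higher), and the endothelial sum from 375 and 377 to 552 and 559 CPM (1 of 11 higher). The macrophage sum went from 970 and 1100 to 1341 and 1489 CPM, with 0 of 12 called in edgeR and 12 of 12 values above 0. Peritubular and stromal sums overlapped.

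The populations also differed in these markers. Leydig markers were higher in cKit than in Thy1 for 11 of 12 genes in control and 12 of 12 in dKO, with mean sums of 3085 against 12931 CPM and 4226 against 17685 CPM. Peritubular and stromal markers were lower in cKit for 16 of 16 and 13 of 16, with mean sums of 13795 against 3471 CPM and 13843 against 6307 CPM. Macrophage markers were lower for 8 of 12 in control and 9 of 12 in dKO. Core germ cell genes were lower for 7 of 30 in control and 25 of 30 in dKO. Sertoli markers were higher for 7 of 19 and 8 of 19, with 1 lower in each. Endothelial markers were lower for 3 of 11 and 2 of 11. The part of these differences in the members' values was not tested.

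Scaling the libraries on the list of 30 core germ cell genes puts the module against the median of those genes in place of all RNA. With TMM these genes ran from -3.82 to 0.80 in cKit dKO, with a median of -1.61. Whether the dKO acts on them was not tested, so this scale is not a level per germ cell. The scaling moved the median of all genes to 1.63 in cKit dKO. The median of the tested members became 0.47, with 27 values above 0 and 8 below. The 7 members then higher, against 81.1% of all genes higher and 0.449% lower, were Msh5 (2.18 ± 0.92, edgeR adjusted p = 0.023), Mybl1 (2.09 ± 0.43, adjusted p = 4e-06), Mlh3 (1.38 ± 0.30), Mnd1 (1.37 ± 0.50), Psmc3ip (1.26 ± 0.36), Sun1 (1.18 ± 0.30) and Ythdc2 (0.81 ± 0.31). Msh5 had 2 and 18 summed counts in the cKit dKO libraries, from entries with equal counts in each, so its value rests on few reads. The members at the other end, Mei4 (-0.99 ± 0.51), Mei1 (-0.66 ± 0.46), Hfm1 (-0.44 ± 0.43) and M1ap (-0.26 ± 0.34), did not pass.

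**Figure D4:**
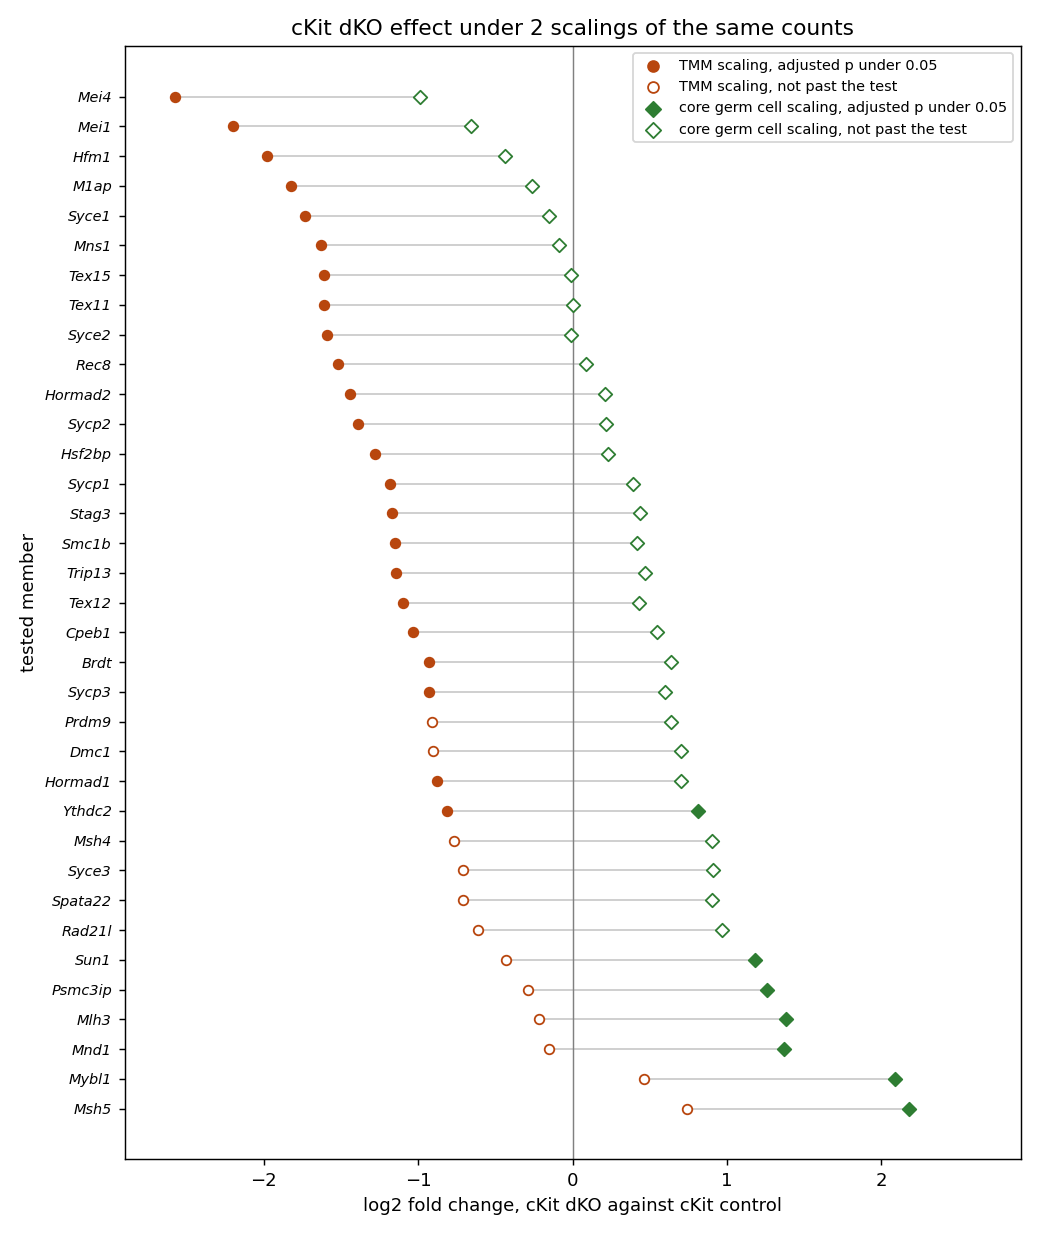
Log2 fold change of the tested members in cKit dKO against control under TMM scaling and under scaling on the list of 30 core germ cell genes. Each row is a member; the points shift by about the same amount, from a median of -1.10 to a median of 0.47, and Mei4 and Mei1 stay at the lower end.

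Promoter sequence was examined because so many members moved together in cKit dKO. Windows of 250 bases before the RefSeq start (GRCm38.p6) were matched to the deposited transcript starts within 100 bases, for 29 of the 37 members and 15463 genes in all. The windows were searched on both strands for the E box CACGTG, the E2F core TCCCGC and the cAMP response element TGACGTCA. CACGTG is a motif of MGA with MAX, but not of that pair alone. CACGTG and TGACGTCA read the same on both strands. An E box was in 6 of 29 members (20.7%) and in 6.82% of all genes. An E2F core was in 15 of 29 members (51.7%) and 22.0% of all genes. The cAMP response element was in 0 of 29 members and 2.09% of all genes. The members' windows were also richer in CpG, with a median of 15.0 per window against 10, and in GC, with 62.4% against 55.6%. These shares describe letters only, and the part of CpG and GC content in them was not tested.

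The 6 members with an E box were Brdt, Hormad1, Stag3, Sycp1, Sycp3 and Tex12. All 6 are among the 19 members with a window that fell in cKit dKO, and 0 of the 10 windows of tested members not called there held one. The E2F core was in 9 of those 19 and in 6 of those 10. Of the 10, Msh5, Syce3 and Spata22 are limited by low counts. Dmc1 (-0.90) and Prdm9 (-0.91) were not called, with values close to those of Sycp3 and Brdt (both -0.93), which were. Scaled on core germ cell genes, 0 members were called lower in cKit dKO, so this split holds for TMM scaling only. A link of the E box to the falls was not tested. The windows of Hormad1 and Sycp3 are printed since each holds 2 E boxes, a choice made after the matches were seen. Capitals mark E boxes and the E2F core (GCGGGA on the printed strand), 5′ to 3′ on the strand of the gene: Hormad1 at chr3:95559427-95559676 (+) and Sycp3 at chr10:88459337-88459586 (+).
Hormad1: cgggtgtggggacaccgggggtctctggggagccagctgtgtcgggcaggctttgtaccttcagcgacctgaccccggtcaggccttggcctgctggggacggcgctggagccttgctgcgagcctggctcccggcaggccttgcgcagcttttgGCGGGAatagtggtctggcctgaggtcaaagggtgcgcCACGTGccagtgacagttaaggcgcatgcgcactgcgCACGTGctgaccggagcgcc
Sycp3: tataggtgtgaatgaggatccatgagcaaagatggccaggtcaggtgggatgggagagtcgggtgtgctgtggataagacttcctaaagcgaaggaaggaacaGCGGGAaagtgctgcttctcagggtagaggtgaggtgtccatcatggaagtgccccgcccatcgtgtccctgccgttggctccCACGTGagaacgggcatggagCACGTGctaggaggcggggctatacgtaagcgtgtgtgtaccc

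In Hormad1 the E boxes start 57 and 20 bases before the start site and in Sycp3 64 and 43 bases before it. Of the 6 members with an E box, 4 (Brdt, Hormad1, Sycp3 and Tex12) have falls in cKit dKO that were not called once some single library was left out, so the split between called and uncalled members rests in part on them. For contrast, the windows of the largest called falls with a window are Mei4 at chr9:81863420-81863669 (+), Hfm1 at chr5:106925891-106926140 (-) and M1ap at chr6:82946672-82946921 (+). They hold no E box, and only M1ap holds an E2F core, in capitals.
Mei4: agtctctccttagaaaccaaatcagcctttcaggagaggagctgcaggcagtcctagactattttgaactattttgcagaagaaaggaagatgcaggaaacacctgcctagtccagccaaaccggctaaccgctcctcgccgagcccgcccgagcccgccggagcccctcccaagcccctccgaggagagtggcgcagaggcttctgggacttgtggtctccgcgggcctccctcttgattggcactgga
Hfm1: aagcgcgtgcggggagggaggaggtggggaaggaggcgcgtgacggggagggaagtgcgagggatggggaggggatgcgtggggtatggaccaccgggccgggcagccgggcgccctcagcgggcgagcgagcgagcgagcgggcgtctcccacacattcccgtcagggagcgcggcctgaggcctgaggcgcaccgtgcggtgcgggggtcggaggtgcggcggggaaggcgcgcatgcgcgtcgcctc
M1ap: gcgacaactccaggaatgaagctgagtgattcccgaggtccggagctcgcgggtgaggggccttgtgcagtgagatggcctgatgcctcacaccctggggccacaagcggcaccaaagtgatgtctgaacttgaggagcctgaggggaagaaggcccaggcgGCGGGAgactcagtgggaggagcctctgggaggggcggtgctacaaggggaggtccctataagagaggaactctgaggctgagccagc

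The windows of the most abundant members that were not called in cKit dKO are Mlh3 at chr12:85270592-85270841 (-) and Sun1 at chr5:139200387-139200636 (+). Mlh3 holds none of the motifs and Sun1 holds 2 E2F cores. Sun1 also has a shorter deposited entry that starts at chr5:139215158, downstream of this window. That entry took 45.4% to 68.5% of the Sun1 counts in the Thy1 libraries and 75.9% to 85% in the cKit libraries.
Mlh3: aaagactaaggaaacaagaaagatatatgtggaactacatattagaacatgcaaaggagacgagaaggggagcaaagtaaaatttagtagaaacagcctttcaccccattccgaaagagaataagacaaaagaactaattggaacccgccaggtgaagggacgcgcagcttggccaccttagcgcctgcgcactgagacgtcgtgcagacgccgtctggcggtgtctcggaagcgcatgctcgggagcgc
Sun1: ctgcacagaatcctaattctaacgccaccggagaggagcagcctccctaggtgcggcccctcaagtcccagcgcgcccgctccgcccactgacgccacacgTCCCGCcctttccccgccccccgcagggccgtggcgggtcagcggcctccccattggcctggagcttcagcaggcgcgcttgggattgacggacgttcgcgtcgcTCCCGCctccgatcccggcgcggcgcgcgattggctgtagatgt

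A further list of meiotic genes, outside the module, was read the same way; 20 of its 25 genes were analysed. In Thy1 dKO 0 of 20 passed in edgeR or DESeq2. At an unadjusted p under 0.05, 0 were higher and 1 lower there, against 7.57% and 6.25% of all genes. In cKit dKO 7 of 20 were lower and 0 higher, with a median of -0.88, against 15.4% of all genes lower and 13.2% higher. Those that fell were Ccnb1ip1 (-1.86), Stra8 (-1.63), Mcm8 (-1.58), Ccdc36 (-1.53), Fignl1 (-1.24), Zcwpw1 (-1.16) and Fkbp6 (-0.83). Stra8 was at 30.8 and 30.6 CPM in Thy1 control, 28 and 24.2 in Thy1 dKO, 70.3 and 48.9 in cKit control, and 18.7 and 19.9 in cKit dKO. Both cKit control libraries lie above all Thy1 libraries and both cKit dKO libraries below them. Ccdc36, the partner of MEI4 and REC114 on the axis, was at 15.6 and 14.7 CPM in cKit control and 4.96 and 5.49 in cKit dKO. Scaled on core germ cell genes, 0 of the 20 were lower and 6 higher in cKit dKO, against 0.449% and 81.1% of all genes, with Stra8 at -0.01 ± 0.32.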

How the data were processed

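Per the labels' protocols, amplified cDNA (NuGEN Ovation v2) was made into Nextera XT libraries. Reads were aligned to mm10 with STAR 2.4.2a, per the submitters' processing notes. The deposited counts are whole reads per transcript entry (26099 entries), not normalized, per the file headers and values. The deposited RPKM values are reads scaled by transcript length and library size, per the file headers. The counting tool and strand setting are not given in the sources used here.

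Counts were summed per symbol and tested with edgeR 4.0.16 in R 4.3.3: filterByExpr, TMM, 1 mean per group over all 8 libraries (4 residual degrees of freedom), glmQLFTest (two-sided), and Benjamini-Hochberg adjustment over 14907 genes at 0.05. An SE is the size of the log2 fold change divided by the root of the F statistic. The fit was tested on simulated data. Alternatives included DESeq2 1.42.0 and limma 3.58.1 on log2(RPKM + 0.5). Core germ cell scaling used the median ratio over those of the 30 listed genes with counts above 0 in all 8 libraries. Of the members, 4 have several entries. Sequences are from RefSeq, GRCm38.p6.

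The members and all lists were chosen with earlier results of these data known. Values in every library are given for members called in Thy1 dKO or in the difference of effects, for up to 10 called members of largest change per comparison, and for 20 listed members; of the further meiotic genes Stra8 and those called are named. The share of Rn45s among the counts was 8.42% to 13.56%.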

Additional observations from a re-analysis of the deposited data

Results flagged for a closer look

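The dKO effect differed between cKit+ and Thy1+ cells for 14 members, by edgeR's test of the difference itself (log2 effect in cKit minus that in Thy1). The values were, for break formation, -3.11 for Mei1 (edgeR adjusted p = 0.0018) and -1.84 for Mei4 (0.044). In the crossover class they were -2.03 for M1ap (0.0027), -1.90 for Hfm1 (0.024) and -1.68 for Tex11 (0.0036). Among the strand exchange genes they were -1.97 for Hsf2bp (0.043), -1.66 for Tex15 (0.0014) and -0.73 for Trip13 (0.043). For the axis they were -1.75 for Smc1b (0.00084) and -1.31 for Stag3 (0.0035). For the synaptonemal complex they were -1.49 for Syce1 (0.0041), -1.46 for Syce2 (0.0011), -1.41 for Sycp2 (0.022) and -1.23 for Sycp1 (0.0058). Mei1, M1ap, Hsf2bp, Smc1b and Stag3 lay above control in both Thy1 dKO libraries and below control in both cKit dKO libraries. Of all genes, 28.5% lay above control in Thy1 dKO and 30.0% below control in cKit dKO, each comparison taken alone. The share with both was not computed. The 14 were picked by the difference in these same libraries, which favours opposite shifts. With limma on log2(RPKM + 0.5), 0 members passed for the difference. At an unadjusted p under 0.05 there were 26, and the share of all genes at that threshold was not computed. The edgeR calls of Hfm1, Hsf2bp, Mei4, Sycp1, Sycp2 and Trip13, 6 of the 14, were lost without some single library. Scaled on core germ cell genes, Mei1 was the one of the 14 that passed (-1.92), and Trip13 turned to 0.51.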

How the results depend on the processing

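Calls were recomputed under 17 other settings. With scaling on core germ cell genes, members higher and lower were 7 and 0 in cKit dKO, 8 and 0 in dKO cKit against Thy1, 2 and 1 for the difference, 1 higher in control cKit against Thy1, and 0 lower in Thy1 dKO. In the same order, the shares of all genes were 81.1% and 0.449%, 77.2% and 1.33%, 51.7% and 0.255%, 15.0%, and 0.0537%. Members that fell in cKit dKO with TMM then stood at 0.39 (Sycp1), 0.22 (Sycp2), 0.60 (Sycp3), 0.44 (Stag3), 0.42 (Smc1b), 0.09 (Rec8), 0.70 (Hormad1), 0.00 (Tex11), 0.64 (Brdt), 0.81 (Ythdc2), 0.23 (Hsf2bp) and 0.47 (Trip13). Of the named members lower in cKit than in Thy1 among dKO libraries, those that turned positive were at 0.24 (Sycp1), 0.14 (Sycp3), 0.35 (Syce2), 0.49 (Rec8), 0.02 (Hormad1), 0.30 (Dmc1), 0.05 (Prdm9), 0.17 (Mei4), 0.26 (Brdt), 0.84 (Ythdc2), 0.91 (Mns1) and 0.81 (Trip13), and for the difference 0.51 (Trip13). In Thy1 dKO, members higher were 1 with DESeq2, 1 without a filter and 2 with only the 4 libraries compared. The shares of all genes were 1.49%, 1.65% and 3.01%. Members lower were 0 with the largest entry per symbol, 0 with limma and 2 with only the 4 libraries, against 0.0269%, 0.0308% and 3.05%. In control cKit against Thy1, members higher were 1 with the largest entry and 2 with limma, against 7.36% and 14.1% of all genes. Members lower were 2 without a filter, 1 with limma and 1 with only the 4 libraries, against 8.88%, 5.44% and 11.3%. For the difference, members lower were 9 with the largest entry, 0 with limma and 13 with DESeq2, against 2.23%, 0.00770% and 4.63% of all genes. With limma, 26 members had an unadjusted p under 0.05 there, and the share of all genes at that threshold was not computed. In cKit dKO DESeq2 called 21 lower and 0 higher, against 12.8% and 13.9% of all genes. Leaving out 1 library at a time gave 0 to 1 higher and 0 to 1 lower in Thy1 dKO, 18 to 23 lower in cKit dKO, 0 to 1 higher and 0 to 3 lower in control cKit against Thy1, 20 to 27 lower in dKO cKit against Thy1, and 8 to 18 lower for the difference. The cause was not tested.

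With the replicate number as a block, 1 member was lower in Thy1 dKO, 23 in cKit dKO, 27 in dKO cKit against Thy1 and 14 for the difference. The shares of all genes lower were 0.402%, 15.1%, 19.8% and 4.11%. Same-numbered libraries did not deviate together (r = -0.05 to 0.08 across 11524 genes), so the numbers are not taken as pairs. Low counts limit Spo11, Meiob, Msh4, Msh5, Syce3 and Spata22. The cDNA was amplified without molecular identifiers, so counting floors cover only the counting error of the group at 0.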

Other observations

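The 12 subunits of PRC1.6, the variant complex known to bind germ line promoters, were read beside the module. In Thy1 dKO 0 of 12 passed in edgeR or DESeq2. Of all genes, 0.362% were higher and 0.262% lower in edgeR, and 1.49% and 1.13% in DESeq2. At an unadjusted p under 0.05, 0 of the 12 were higher and 5 lower in Thy1 dKO, against 7.57% and 6.25% of all genes. In cKit dKO 6 of 12 were lower and 0 higher, with a median of -0.46, against 15.4% of all genes lower: L3mbtl2 (-1.43), Wdr5 (-0.88), Hdac1 (-0.70), Cbx3 (-0.58), Hdac2 (-0.57) and Mga (-0.41). At an unadjusted p under 0.05, 6 were lower and 2 higher, Rybp (0.37) and Yaf2 (0.37), against 20.6% and 19.4% of all genes. Scaled on core germ cell genes, 0 of 12 were lower there and 11 were higher, against 81.1% of all genes higher on that scale.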
